A study of Chlamydomonas reinhardtii with 8 samples.

Results

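The transcripts described here are 90 transcript models of the green alga *C. reinhardtii* that gave a lower signal in RNA labelled as sulfur-starved than in RNA of the same strain before starvation. The array carried 3 probes for each of 14557 transcript models, and the members were chosen by probes 1 and 2. Both probes had to have a mean log2 ratio of Cy5 over Cy3 of -1 or lower, a 2-fold lower signal, over replicates 3 to 6 of the wild type cc3491, and both had to be well above background in both channels on all 4 arrays. Of the 14557 models, 3281 met the background condition and 93 of these met the threshold (2.83%). Another 3 of the 93 were left out by name, which left 90. The ratios on replicates 3 to 6 therefore selected the members and are given as a description without a test.

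The replication experiment consisted of 6 arrays of cc3491 with T0 RNA (0 h) in Cy3 and RNA of cells in medium without sulfur in Cy5. The sample titles of all 6 give 24 h, whereas the labels of the Cy5 channel give 24, 48, 72, 96, 24 and 48 h for replicates 1 to 6. Replicates 1 to 4 lay on a first slide and replicates 5 and 6 on a second. The dye test consisted of 2 arrays of the wild type cc125 on a separate slide, with 24 h given for both channels. Its titles name sulfur stress, and the study describes its RNA as that of starved cells, the same in both channels, so that of the 8 arrays only those of cc3491 carried T0 RNA. The study combines biological and technical replicates without saying which array is which.

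*C. reinhardtii* answers a lack of sulfate by making sulfate transporters and extracellular arylsulfatases, which release sulfate from organic esters, and by replacing abundant extracellular proteins with forms poor in sulfur amino acids. Cell division, photosynthesis and protein synthesis slow down, and many transcripts of growing cells decline. On a two-colour array both RNAs compete for the same spot, so that equal amounts give a log2 ratio of 0 and a transcript that is scarcer in the Cy5 RNA gives a negative one.

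The arrays differed in brightness. Of the 43671 numbered probes, 1281 and 1026 were well above background in both channels on replicates 1 and 2, 11893 to 20911 on replicates 3 to 6, and 39608 and 41054 on the dye-test arrays. The label of the Cy5 channel was set against 4 genes known to be induced by sulfur starvation, the arylsulfatases *ARS1* and *ARS2* and the extracellular polypeptides *ECP76* and *ECP88*. Their 12 probes on the 4 arrays gave 48 values, of which 3 were well above background in Cy5 and 1 in both channels. Probe 1 of *ECP76* had log2 ratios of 4.34, 3.72, 0.57 and 0.99 on replicates 3, 4, 5 and 6. On replicates 5 and 6 none of the 12 probes was well above background in either channel. On the first dye-test array 10 of the 12 were so in both channels. There the log2 ratio of the 12 probes ranged from -0.56 to 0.52 with a median of -0.02. On the second dye-test array, labelled with the same RNA in both channels, all 12 probes were well above background in both and their log2 ratio ranged from 0.21 to 5.58 with a median of 3.81. Most marker values were not well above background in Cy5 on replicates 3 to 6, which goes against the starved label. Probe 1 of *ECP76*, higher in Cy5 on replicates 3 and 4, goes the other way. The marker values on the second dye-test array go against its label. Whether the labels are right was not tested. Below, "starved" means the channel so labelled.

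The 90 members had a median log2 ratio of -1.38 on replicates 3 to 6, which is a 2.61-fold lower signal in the starved channel, with quartiles of -1.63 and -1.19 and a range from -4.22 to -1.01. The median over all 3281 models was between -0.01 and 0.01 on each of these arrays. On single arrays the median of the members was -1.31, -1.30, -1.43 and -1.43 for replicates 3, 4, 5 and 6. All 90 members were below 0 by both probes on each of the 4 arrays, and 63 were at -1 or lower by both probes on each of them. The SD over the 4 arrays had a median of 0.10 and a maximum of 0.33 in the members, and its median over all 3281 models was 0.11. Probes 1 and 2 of a member differed by a median of 0.11. Their largest difference was 1.32 in model 141065, whose probes gave -2.35 and -1.03, and in no other member did it exceed 1. No spot of probe 1 or 2 was saturated or marked as uneven on the 4 arrays in any member. The processed signal of a member ranged from 499 to 136257 units in T0 and from 219 to 63773 in the starved channel, so that bright and dim spots were both among them.

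**Figure D1:**
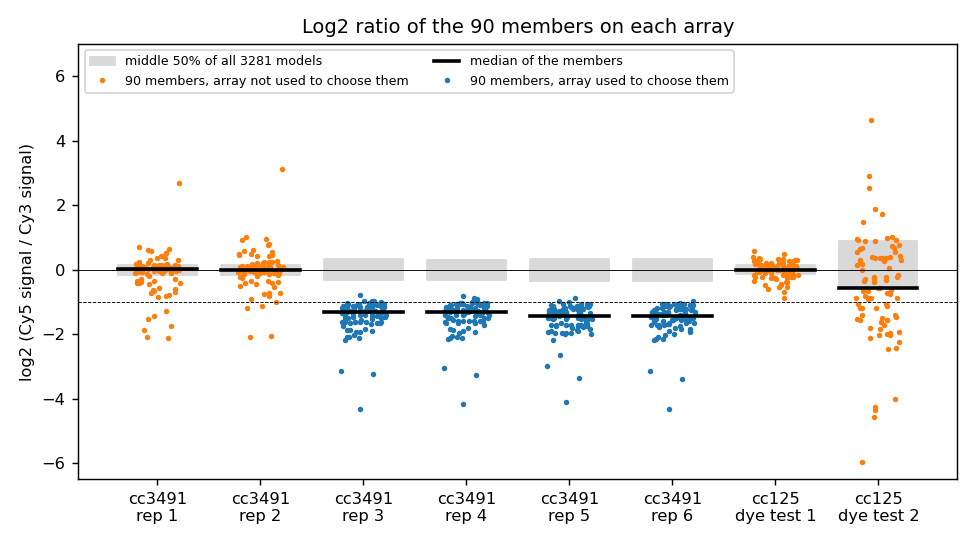
The log2 ratio of Cy5 over Cy3 of each of the 90 members (points, mean of probes 1 and 2) is plotted for the 8 arrays, with the median of the members as a black bar and the middle 50% of the 3281 models as a grey box. The members lie below the box on replicates 3 to 6, which chose them, and between -0.88 and 0.58 on the first dye-test array. On the second dye-test array they lie between -5.96 and 4.64. On replicates 1 and 2 their medians are near 0. Only 8 of the 180 member probes were well above background in both channels on each of these 2 arrays.

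The lowest ratios were found in 3 models without a gene name, the only members at -3 or lower. Model 148898 (CHLRE_09g393543v5) had log2 ratios of -4.30, -4.16, -4.08 and -4.32 on replicates 3, 4, 5 and 6, a signal 18.6-fold lower than in T0. It fell from a T0 signal of 4915 to 264 in the starved channel. Model 191073 (CHLRE_09g398450v5) had -3.23, -3.25, -3.35 and -3.38 on the same arrays, or 9.86-fold. Model 158019, which has no locus tag in the annotation, had -3.15, -3.06, -2.97 and -3.15, or 8.47-fold. In each of the 3 models the 4 arrays were at most 0.23 apart, far less than their distance from 0. Probe 3 was not well above background in both channels on all 4 arrays in any of these 3 models.

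The next 7 members lay between -2.23 and -1.90. Model 192591 (CHLRE_12g527250v5) had -2.03, -2.08, -2.66 and -2.13 on replicates 3 to 6, with replicate 5 lower than the others. *ERM1* (206128), which codes for a membrane protein related to the ERD4 dehydration response protein of land plants, had -2.08, -2.12, -2.17 and -2.15. Model 164497 had -2.19, -2.16, -1.89 and -2.17, and here replicate 5 was the highest. Model 189491 (CHLRE_04g228950v5) had a mean of -2.05 ± 0.05 (SD, n = 4 arrays) and model 187117 (CHLRE_06g266150v5) of -1.97 ± 0.04. Models 141689 (CHLRE_02g112100v5) and 155479 (CHLRE_02g112150v5), whose genes are next to each other in the annotation, had -1.96 ± 0.21 and -1.90 ± 0.09.

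**Figure D2:**
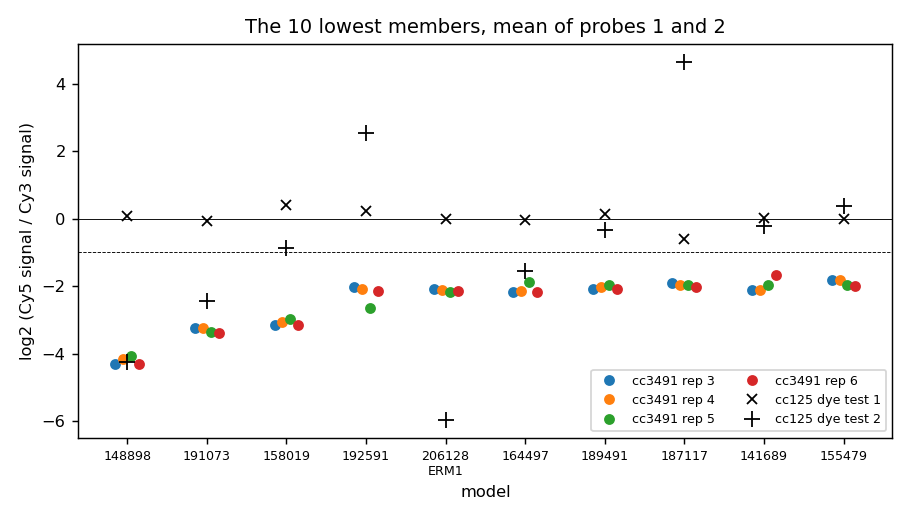
The log2 ratio of Cy5 over Cy3 (mean of probes 1 and 2) is plotted for the 10 lowest members on replicates 3 to 6 of cc3491 (filled circles) and on the dye-test arrays of cc125 (crosses). The 4 cc3491 arrays lie close together for each model, the first dye-test array lies between -0.61 and 0.40, and the second ranges from -5.96 for *ERM1* to 4.64 for model 187117.

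A gene name was found for 7 of the 90 members in the study's supplementary tables, the reference annotation holding locus tags for 71 but no symbols. Besides *ERM1*, those described here belong to metabolism, the plastid, the cell surface and the flagellum. *KIR2* (165065), a ketoacid isomerase-like protein, had -1.4998, -1.49, -1.67 and -1.82 on replicates 3 to 6. *ACS1* (194063) codes for acetyl-CoA synthetase, which activates acetate, the carbon source of the medium, and had -1.27, -1.27, -1.21 and -1.25. The fasciclin-like protein *FAS3* (36709), of a family of adhesion proteins of the cell surface, had -1.60, -1.65, -1.34 and -1.30. *FAP151* (132213), found in flagella, had -1.28, -1.25, -1.31 and -1.38. The gene for the plastid ribosomal protein L7/L12, *PRPL7/L12* (99271), had -1.06, -1.01, -0.86 and -1.10 and was the member closest to the threshold. In these genes the 4 arrays were at most 0.34 apart.

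Close to the threshold, the call rests on the higher of the 2 probes. The 3 members just inside were *PRPL7/L12* with -1.002 and -1.01 for probes 1 and 2, model 141794 (CHLRE_02g106750v5) with -1.01 and -1.03 and model 192647 (CHLRE_12g522350v5) with -1.01 and -1.28. Just outside lay models 188180 with -0.99 and -1.35, 187376 with -0.99 and -1.004, and 194588 with -1.13 and -0.99.

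Among 23 lists of genes by function, made from gene symbols and chosen with earlier results of these data known, 86 of the 3281 models could be placed and 3 of them were members. Over all 3281 models 93 met the threshold (2.83%), so that 3 of 86 is near the overall share. The symbols come from tables of genes that the study reported for nitrogen starvation or for both starvations. Its table for sulfur starvation alone was not used, and the symbols are no random sample of the genome. Plastid ribosomal proteins and translation factors had 1 member of 3 measured models and a median of -0.99, flagella and tubulin had 1 of 5 and a median of -0.58, and cell wall and extracellular matrix had 1 of 4 and a median of 0.38. The other 20 lists had no member. These include the histones with 24 measured models and a median of 0.18, the light-harvesting antenna with 11 and a median of 0.20, subunits of the photosystems, the cytochrome b6f complex and ATP synthase with 6 and a median of 0.12, and the uptake and assimilation of sulfur with 5 and a median of 0.44. Some other lists without a member had negative medians. They included -0.36 for the Calvin cycle (3 measured models), -0.10 for chlorophyll and heme synthesis (3) and -0.66 for the tricarboxylic acid cycle and respiration (2). The list of phosphate uptake held 2 measured models, of which 1 was left out by name, and cytosolic ribosomal proteins and starch held none.

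Probe 3 took no part in the choice but was read from the same arrays. It was well above background in both channels on all 4 arrays in 43 of the 90 members. Its median there was -1.22, and it was at -1 or lower in 30, between -1 and -0.5 in 8 and higher in 5. Over all 2814 models whose probe 3 met the background condition, 123 (4.37%) were at -1 or lower and the median was -0.004. The 5 members with a higher probe 3 were *ERM1* with 0.21, *PRPL7/L12* with 0.13, and models 192647 with -0.17, 166621 with -0.25 and 155479 with -0.30. For these 5 probe 3 gave another value than probes 1 and 2, and the cause was not tested. The study describes added probes based on an earlier array, many of them open to cross-hybridisation, which its authors left out of their analysis. Which of the probe numbers 1 to 3 they carry was not determined here. In the other 47 members probe 3 did not meet the background condition on all 4 arrays, and its values there are not described. Without that condition probe 3 was at -1 or lower in 45 of the 90.

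**Figure D3:**
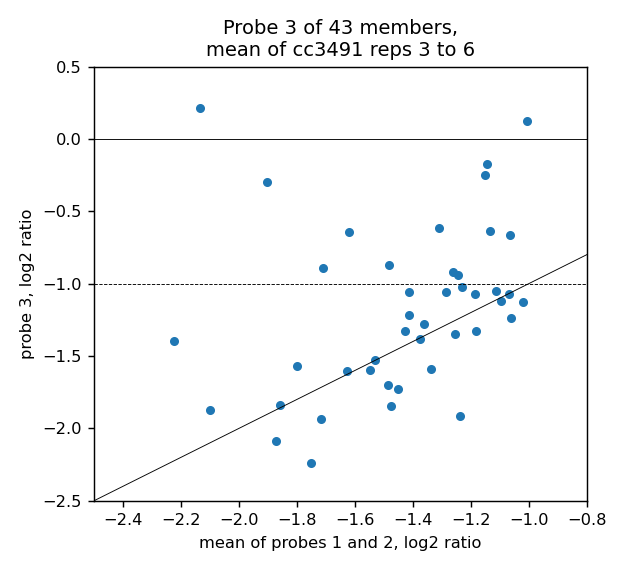
The mean log2 ratio of probe 3 over replicates 3 to 6 is plotted against that of probes 1 and 2 for the 43 members whose probe 3 was well above background; the solid diagonal marks equal values and the dashed line -1. Most points lie near the diagonal, and 2 members lie above 0 by probe 3.

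The members were not spread evenly over the genome. Of the 2806 background-passing models with a locus tag in the v5.5 assembly as annotated by NCBI, 256 lie on chromosome 2 and 21 of these (8.2%) were members. On the other chromosomes with at least 100 such models the share was between 1.08% and 4.07%. The models were therefore placed in gene order, with the mean of their above-background probes 1 and 2 as the value of a model, which gave 4605 values, and a running median over 11 neighbouring models was taken. This was done after the values had been seen, and members and neighbours share arrays and contrast, so that the following is a description. A single long stretch had a running median of -0.5 or lower. It held 59 consecutive measured models from CHLRE_02g104850v5 to CHLRE_02g113200v5, a part of chromosome 2 with 184 annotated genes. The next longest, on chromosome 1, held 3 models.

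In this stretch 13 of 39 models that met the background condition by both probes were members (33.3%). Outside it 58 of 2767 such models were members (2.1%), and another 19 members have no locus tag. The 59 models had a median of -0.88 with quartiles of -1.14 and -0.41, and 43 of them (72.9%) were at -0.5 or lower, but the stretch was found by these same values, so that low values in it follow from the choice. Of the 4546 other models 13.5% were that low, and their median was 0.04. The median of the stretch was -0.93, -0.88, -1.002 and -0.85 on replicates 3, 4, 5 and 6. The 20 measured models before the stretch had a median of -0.08 and the 20 after it one of 0.15. Probe 3, which was not used to find the stretch, could be read in 30 of its models and had a median of -1.04 there, against 0.00 outside.

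Among the 13 members of the stretch, models 141689 and 155479 were the lowest, and 112237 (CHLRE_02g108350v5) had -1.91, -1.94, -1.75 and -1.84 on replicates 3 to 6. Model 186803 (CHLRE_02g109650v5) had -1.52, -1.65, -1.91 and -1.43, and model 195620 (CHLRE_02g108850v5) had -1.74, -1.64, -1.35 and -1.46. The other pair of members that are neighbours in the annotation, models 166662 (CHLRE_02g111700v5) and 182146 (CHLRE_02g111750v5), had means of -1.48 and -1.26. The 13 members ranged from -1.96 to -1.02.

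**Figure D4:**
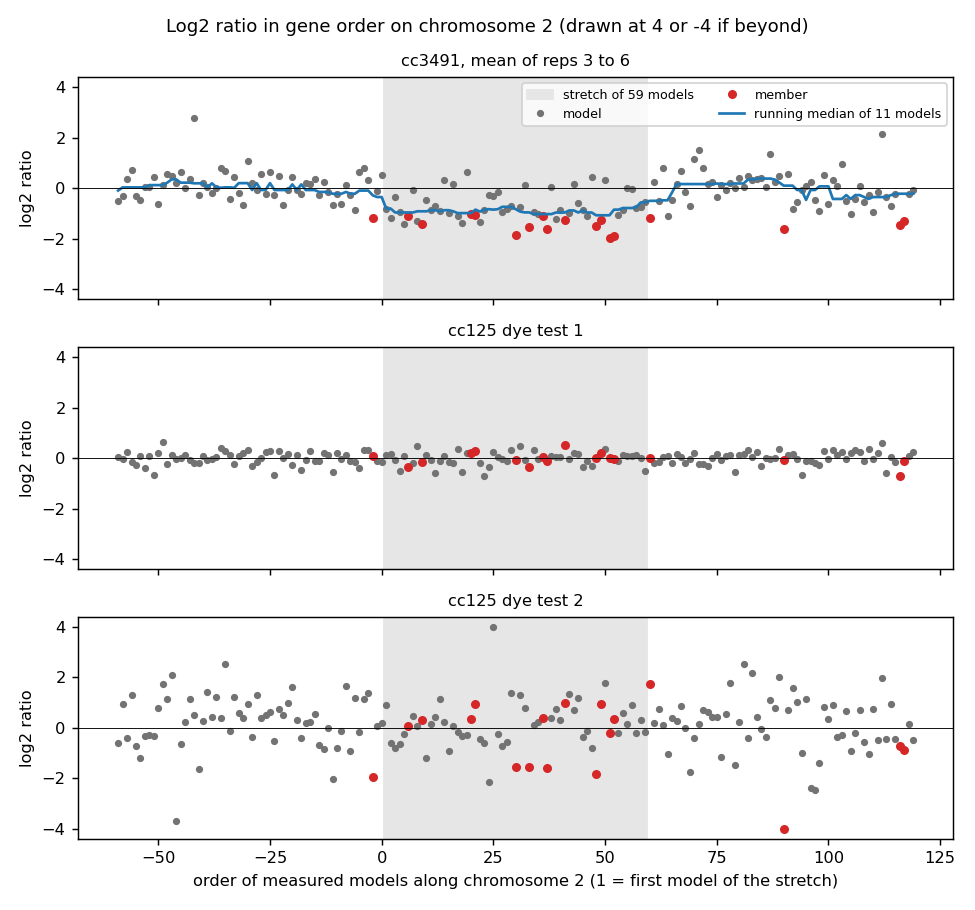
The log2 ratio of Cy5 over Cy3 of measured models is plotted in the order of their genes on chromosome 2 for the mean of replicates 3 to 6 of cc3491 and for the dye-test arrays of cc125, with members in red and the stretch of 59 models shaded. On cc3491 the running median (blue) steps down at the start of the stretch and returns to about 0 after it, while on the dye-test arrays the models of the stretch have medians of 0.01 and 0.13.

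The signal of each channel of replicates 3 to 6 was also set against the 4 channels of the dye-test arrays, probe by probe and relative to the median of all 8660 probes that passed, which gave 16 comparisons per channel. For the 98 probes of the stretch the T0 signal was higher than in cc125 by 0.87 to 1.27 log2 units in the 16 comparisons. The starved signal of the same probes differed from cc125 by -0.08 to 0.25. For the 26 probes of the 13 members in the stretch, T0 was higher by 1.47 to 2.13 and the starved signal differed by 0.09 to 0.57. For the 154 probes of the 77 members outside the stretch, T0 was higher by 0.36 to 1.26 and the starved signal differed by -1.14 to -0.25. Against Cy5 of the second dye-test array, T0 was higher by 1.18 to 1.26 and the starved signal differed by -0.39 to -0.25. The marker values go against the label of that array. Against the other dye-test channels T0 was higher by 0.36 to 0.65 and the starved signal differed by -1.14 to -0.73. These sets were all chosen by the ratio of the 2 channels, which fixes that the channels differ but not which of them differs from cc125. The dye-test RNA is given as starved, so that strain, slide and, for T0, treatment and labelled time differ together and cannot be told apart. For the starved channel strain and slide differ, and on replicates 3, 4 and 6 the labelled time as well. Where a Cy3 signal was set against a Cy5 signal, the dye differs too. Only RNA was measured, and the number of gene copies was not.

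**Figure D5:**
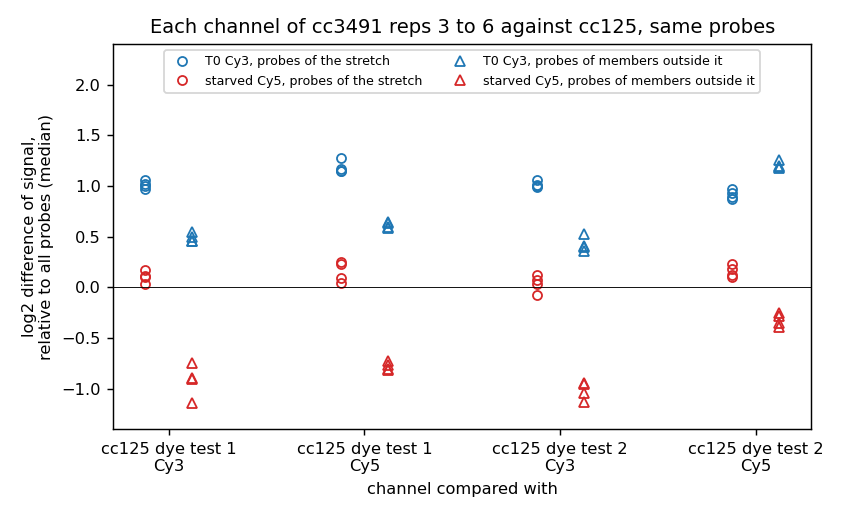
The median log2 difference of the processed signal between a channel of cc3491 replicates 3 to 6 (4 points each) and a channel of a dye-test array, after subtracting the median over 8660 probes, is plotted for 98 probes of the stretch (circles) and 154 probes of members outside it (triangles). In the stretch T0 (blue) lies at 0.87 to 1.27 and the starved channel (red) at -0.08 to 0.25.

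The other arrays were not used by the rule. On replicates 1 and 2, 8 of the 180 member probes were well above background in both channels on each array (4.44%), against 5.01% and 4.39% of the 6562 probes of all 3281 models. The median of the members was 0.01 and -0.01, and 82 and 83 of the 90 were between -1 and 1. The highest values were 2.69 and 3.11 for model 148591, which had -1.07, -1.02, -1.07 and -0.97 on replicates 3 to 6. The lowest were -2.13 on replicate 1 for model 186862 (CHLRE_02g105200v5), which had -0.98, -0.91, -1.33 and -1.16 on replicates 3 to 6, and -2.07 on replicate 2 for model 129593. On these 2 arrays no spot of probe 1 or 2 of models 186862 and 129593 was well above background in both channels. Model 148591 had 1 such spot. At this signal a ratio of the members was not measurable on replicates 1 and 2 in most cases.

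On the first dye-test array, 178 of the 180 member probes were well above background and the members ranged from -0.88 to 0.58 with a median of 0.01. No member reached a 2-fold difference in either direction, and 1 of the 3281 models did (0.0305%, lower in Cy5). The lowest was model 181931 (CHLRE_10g418450v5), which had -1.47, -1.42, -1.47 and -1.54 on replicates 3 to 6.

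On the second dye-test array the members were shifted downwards as a group but differed widely. Their median was -0.58 against 0.18 for the 3281 models. At -1 or lower were 32 of the 90 (35.6%), against 16.2% of all models, and at 1 or higher were 7 (7.78%), against 22.4%. *ERM1* was the lowest member with -5.96, followed by models 149381 (CHLRE_06g284100v5) with -4.57, 159408 (CHLRE_13g606962v5) with -4.34, 148898 with -4.26 and 194813 (CHLRE_02g118550v5) with -3.99. Of these, only 148898 had a ratio of similar size on replicates 3 to 6, where the other 4 lay between -2.13 and -1.21. The highest members were model 187117 with 4.64, 205748 with 2.92, 192591 with 2.55 and 156908 (CHLRE_03g189200v5) with 1.90. The stretch on chromosome 2 had a median of 0.13 on this array and 0.01 on the first, against 0.21 and 0.01 for the other models, and 4 of its 13 members (30.8%) were at -1 or lower on the second. No test was made, since 1 array gives no spread.

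Replicates 3 and 4 lay on the first slide and 5 and 6 on the second, and this difference was not used by the rule, which averages the 4 arrays. limma's moderated test with Benjamini-Hochberg adjustment over the 11474 probes above background in both channels on all 4 arrays called 1030 probes (8.98%), of which 228 were higher (1.99%) and 802 lower (6.99%) on the first slide. The split depended on the scaling, with 1019 higher and 486 lower after median centring of each array, 401 and 815 after loess, and 1209 and 420 after normexp and loess. Of the 180 member probes, 3 were called (1.67%), 2 higher and 1 lower on the first slide, and the median difference over the member probes was 0.08 against 0.03 over all probes tested. Both probes of model 76525 (CHLRE_02g110400v5) were called. Its ratios were -0.97 and -0.99 on the first slide and -1.49 and -1.54 on the second. The difference was 0.59 (SE 0.055) for probe 1 and 0.48 (SE 0.065) for probe 2, with adjusted p = 0.0213 and 0.0338 in limma. The other called probe was probe 2 of model 141065, with -1.38, -1.30, -0.67 and -0.76 on replicates 3 to 6 and a difference of -0.62 (adjusted p = 0.0265 in limma). Probe 1 of this model differed by 0.00. Without replicate 3 or without replicate 4 limma called 0 of the 11474 probes, with 1397 and 1372 at an unadjusted p under 0.05 (3313 with all 4 arrays), and without replicate 5 or 6 it called 3648 and 3759. Slide and labelled time (72 and 96 h against 24 and 48 h) cannot be told apart, and the p-values measure only the spread between arrays, which may be technical.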

How the data were processed

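RNA of *C. reinhardtii* was hybridised to 8 two-colour Agilent arrays, 6 of cc3491 and 2 of cc125. The authors deposited the output of Agilent Feature Extraction 10.7.3.1 for each array, with the processed intensity of each spot in both channels, which the software had corrected for background, trend and dye, and the uncorrected median intensities. The deposited files also hold marks per spot and the log10 ratio of Cy5 over Cy3. The deposited value table of the series holds the same log10 ratio and was used as an alternative after conversion to log2.

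The log2 ratio of the processed intensities was used without further normalization, as the selection requires, and control spots were left out. The methods' further lowess step was an alternative, run as loess in limma 3.58.1 (R 4.3.3), as was normexp with an offset of 50. Each probe was a single spot. Slides were compared by limma (lmFit, eBayes) with a Benjamini-Hochberg adjusted p threshold of 0.05, and the step was tested on simulated data. Figures were drawn in Python 3.11.15 with matplotlib 3.10.9.

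The members and the lists were chosen with earlier results of these data known. Named are the 10 lowest members, the 3 models nearest to the threshold on either side, members with a gene symbol or in a list, and models singled out after their values were seen. Locus tags and gene order come from NCBI's gene table of the v5.5 assembly, where 12302 of the 14557 models were found as older locus names. The arrays use another build, so that no coordinates are given. Names were taken only from supplementary tables in which identifiers used as names matched their own row. Arrays have no read depth, and the number and brightness of arrays limit the precision. The other arrays of the study are not analysed here. The values of 1 named member are not reported here.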

Additional observations from a re-analysis of the deposited data

Results flagged for a closer look

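Differences between slides flagged 3 member probes by limma's adjusted p, tested over all probes. Probes 1 and 2 of model 76525 were less lowered on the first slide by 0.59 and 0.48 log2 units, and probe 2 of model 141065 was more lowered there, with a difference of -0.62, while probe 1 of that model was not called.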

How the results depend on the processing

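Of 87 alternative values, 68 stayed within 1.5 times the reported count or within 0.07 log2 units (1 SD of the array medians) of the reported value, and no reported value farther than 0.07 from 0 changed sign. Some of the 68 could hardly move. The deposited value table repeated the reported values except on replicates 1 and 2, and leaving out saturated or marked spots removed no member. The 90 members became 37 after normexp and loess, of which 32 were among the 90, 172 with the background filter on Cy3 only, 218 without it, 36 over all 6 arrays and 24 at a threshold of -1.5. Leaving out an array gave 88 to 95. Their median of -1.38 became -1.04 after normexp and loess and -1.49 after median centring, which moved the median of all 3281 models by -0.10; without an array it was -1.39 to -1.35. Probe 3 was at -1 or lower in 29 to 31 members without an array.

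Over probes above background in at least 1 channel, the median was -0.57 in 12 members on replicate 1 and 0.38 in 14 on replicate 2. On the second dye-test array it was -0.32 after normexp and loess. The 1030 probes that differed between slides became 1629 after normexp and loess, 1 with Holm adjustment, 169 at 2-fold or more, 283 with the weaker filter, and 0 to 3759 without an array. Fewer arrays leave 1 residual degree of freedom, and the cause was not tested.

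The stretch on chromosome 2 and its alternatives were chosen after seeing the data. It held 57 to 64 models and 13 or 14 members without an array. With the background filter on Cy3 only it was split, and the longer piece held 54 models and 7 of the members. No paired analysis was possible because each array already pairs its 2 RNAs, and the replication experiment and the dye test share numbers but were not compared by a test.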
